A study of Microtus ochrogaster with 46 samples.

Results

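The genes described here are those that ran opposite to Avpr1a, the vasopressin receptor 1a, across female prairie voles (Microtus ochrogaster). They were chosen in the 29 female libraries alone. Each gene's mean within its female group was subtracted, Pearson's r with Avpr1a was taken on the log2 scale, and genes at -0.7 or less were kept. That gave 215 opposing genes of 14455 tested (1.49%) and of 17479 in the table. The female correlations chose the genes and are given as a description, while the 17 males were kept out of it.

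The animals fell into 6 groups by sex and housing. Naive animals, labelled as sexually naive, had spent 3 weeks with a littermate of their own sex (10 females, 6 males). Paired animals had spent 24 h (10 females, 6 males) or 3 weeks (9 females, 5 males) with a partner of the opposite sex. The titles give 9 females at 3 weeks where the series' description gives 6. All were untreated, with no genetic change named, and their age is not given in the sources used here. Each animal gave 1 library of poly(A) RNA from a tissue punch, so an animal is the replicate.

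Vasopressin is a neuropeptide that acts in the brain mainly through the receptor encoded by Avpr1a, which couples to Gq proteins and calcium release. The receptor has long been studied in the social behaviour of voles, and its level in the forebrain is known to differ widely between individual prairie voles. The nucleus accumbens is a ventral part of the striatum that receives dopamine and takes part in reward. The table carries identifiers (ENSMOCG numbers) and pairs only Avpr1a with a symbol. The roles of the opposing genes, their position and their sequences are therefore not given, and the labelled tissue could not be checked against its markers.

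Estimated depth was 15.3 to 37.9 M reads per library (M for mega), with a median of 29.1 M. The authors' normalization left a gene-specific factor whose pattern split the libraries: all 11 naive and 3 week males showed pattern B, and all 29 females and the 6 males at 24 h showed pattern A. The patterns are read from the data, and the labels name no batch. For naive animals and for animals at 3 weeks, sex and pattern cannot be told apart. The same holds for time and pattern where males at 24 h are set against other males. Within-group correlations in males, and the sexes at 24 h, lie inside a pattern.

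Avpr1a itself varied far more among females than among males. In naive females its log2 level was 4.10 at the lowest, 6.04 at the median and 7.31 at the highest. At 24 h the same 3 values were 2.07, 5.81 and 7.51 in females, and at 3 weeks they were 1.90, 5.17 and 7.17. In males they were 5.79, 6.68 and 7.04 in naive animals and 6.08, 7.02 and 7.28 at 24 h. The 5 males at 3 weeks stood at 6.70, 7.36, 5.95, 7.09 and 7.81. Male medians thus lay above female medians in all 3 conditions, and the spread within groups (SD) was 1.54 in females and 0.53 in males. The lowest female library held an estimated 2.98 reads of Avpr1a, while no male library held fewer than 40.5.

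The opposing genes were mostly abundant. Their mean log2 level had a median of 11.75 (quartiles 10.63 and 12.81), against 9.06 (6.81 and 10.66) for all tested genes, and 178 of the 215 (82.8%) had a mean normalized count of at least 1000, against 35.9% of all tested genes. Together they made up 4.11% to 7.28% of the normalized total of a library. Tested genes were also ranked by level into 5 classes of about 2891, and the opposing genes were 0.138% of the lowest class and 5.08% of the highest. The part of level in the choice was not tested. Levels are not divided by gene length, so abundant here and below means only a high normalized count.

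In females r ran from -0.86 to -0.70 among the members, with a median of -0.75. The members closest to the threshold stood at -0.7015, -0.7015 and -0.7003, and the nearest genes outside it at -0.6985, -0.6977 and -0.6969. All 215 were negative in each of the 3 female groups taken alone, with median r of -0.81 in naive females, -0.79 at 24 h and -0.76 at 3 weeks. Their slope had a median of -0.12 (quartiles -0.16 and -0.09), in log2 units of the member per log2 unit of Avpr1a. Without the pair of females lowest in Avpr1a (24 h replicate 7 and 3 week replicate 5) the median slope was -0.15 and the median r -0.78, with all 215 still negative. All of these females took part in the choice of the genes, so the signs were largely fixed by it and test nothing.

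**Figure D1:**
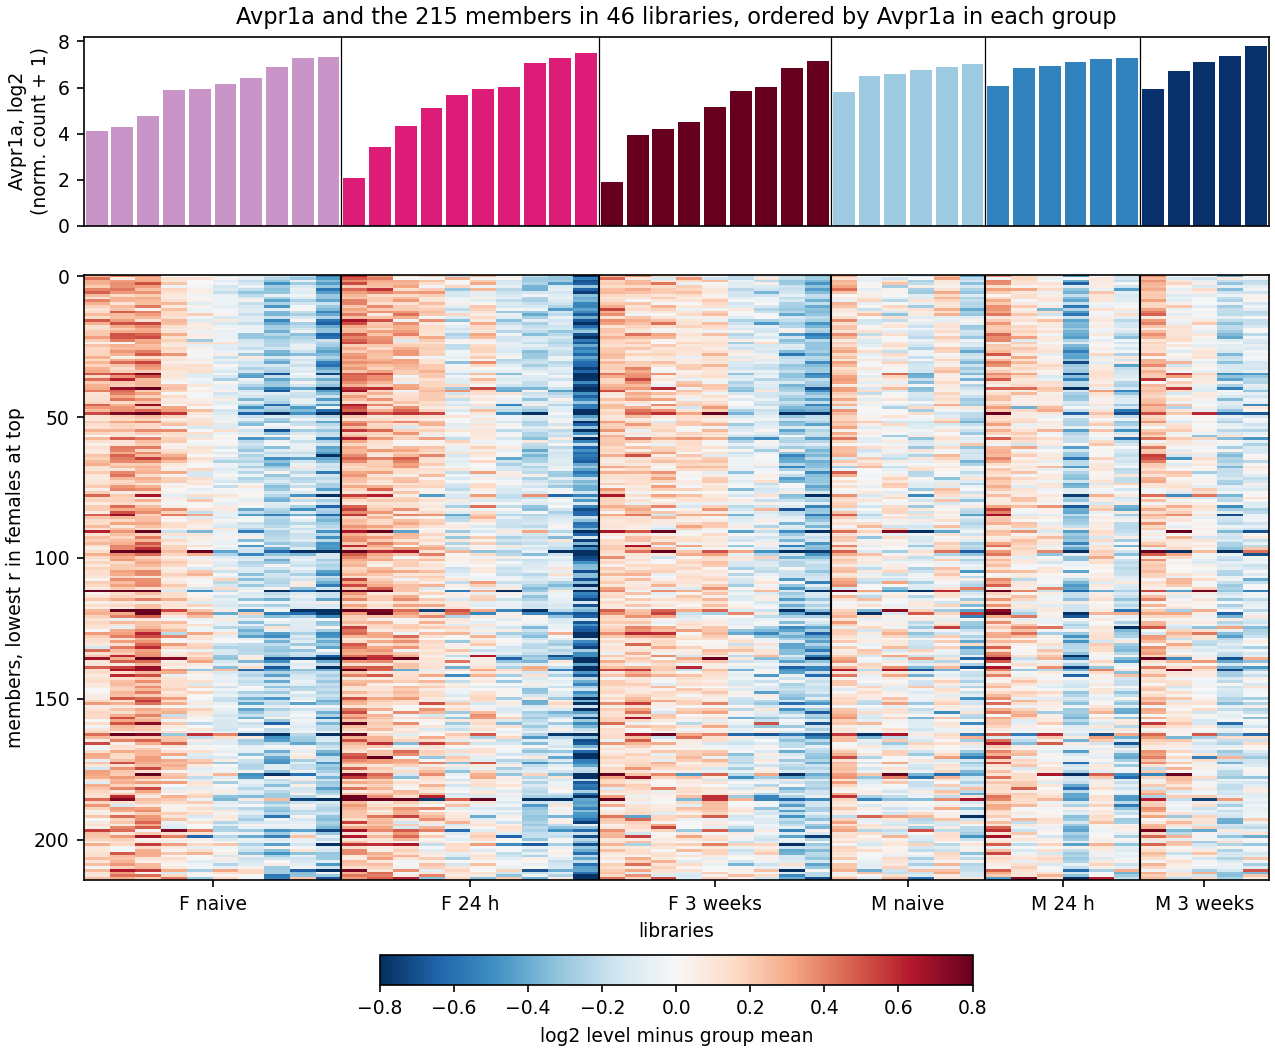
The upper panel shows the log2 level of Avpr1a in each of 46 libraries (F female, M male), ordered by that level within each group. The lower panel shows the 215 opposing genes in the same order as log2 level minus the group mean, with colours capped at 0.8 on either side. In the females that chose the genes the rows turn from red to blue as Avpr1a goes up, and in the 3 male groups they do so less evenly.

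ENSMOCG00000002545 had the lowest female r, -0.86. Its log2 level ran from 11.74 to 12.70 in naive females (median 12.24), from 11.29 to 12.74 at 24 h (median 12.15) and from 12.02 to 12.71 at 3 weeks (median 12.34). At 24 h the female lowest in this gene (replicate 1) was the highest in Avpr1a of all 29 females, and the female highest in this gene (replicate 7) was the lowest in Avpr1a of her group. ENSMOCG00000001666 came next with a female r of -0.84. These values chose the genes and carry no test.

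Across the males, kept out of the choice, 214 of the 215 genes again ran opposite to Avpr1a within groups. Pearson's r had a median of -0.60 (quartiles -0.69 and -0.44), against a median of 0.00 (-0.23 and 0.23) over all 14454 tested genes besides Avpr1a (members included), of which 49.8% were negative. In a bulk punch, fewer cells of a type and less RNA per cell cannot be told apart. The opposing genes also moved together in males, with a median r of 0.55 between pairs of them and 96.5% of pairs positive, so 214 genes are far fewer than 214 separate observations. Over all pairs of tested genes the median was 0.00 and 49.8% were positive. The first principal component held 55.2% of the members' within-group variance in males and 18.1% of that of all tested genes, each gene scaled to the same variance.

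**Figure D2:**
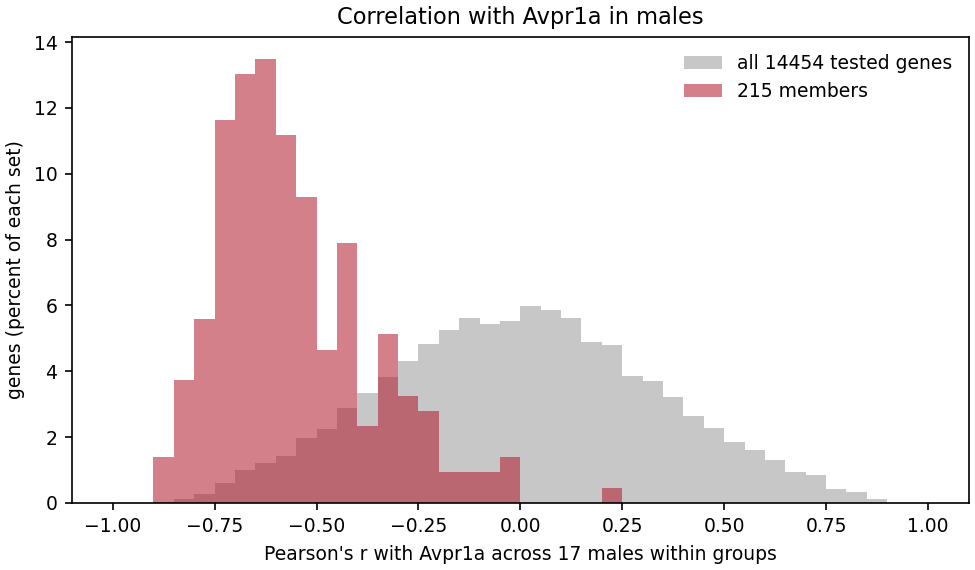
Histogram of Pearson's r with Avpr1a across 17 males after group means were removed, in percent of each set, for all 14454 tested genes other than Avpr1a (grey) and for the 215 opposing genes (red). The grey set is centred at 0.00 and the red set at -0.60, with 1 red gene above 0.

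The slope in males passed the test with a negative sign in 26 of the 215 genes (12.1%; limma, adjusted p under 0.05), while 0.374% of all tested genes did so. None of the 215 passed with a positive sign, against 0.726% of all tested genes. At an unadjusted p under 0.05 there were 149 members (69.3%), against 13% of all tested genes. The median slope was -0.21 log2 units per log2 unit of Avpr1a (median SE 0.08). In 190 of the 215 the slope was steeper in males than in females, and the share of all tested genes was not computed. This difference was not tested because the female slopes chose the genes. Avpr1a also had a within-group SD of 1.54 in females and 0.53 in males. The female median slope moved from -0.12 to -0.15 without the pair of females lowest in Avpr1a. An r of -0.7 or less in males was reached by 48 members (22.3%), where 1.01% of all tested genes reached it. By permutation of Pearson's r, 18 members passed, against 0.27% of all tested genes. By Spearman's rho 0 passed, against 0.00692%. Unadjusted, 144 members were under 0.05 by rho, and the share of all tested genes was not computed.

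The number of members that passed in males changed when single animals were left out. Here and below, counts from alternative fits are of members alone, with no share of all tested genes beside them. Whether calls over all tested genes changed alike is therefore not shown. Without male 24 h replicate 2, the lowest in Avpr1a of that group, 0 members passed by limma (124 under 0.05 unadjusted), and without male 3 week replicate 3, the lowest of that group, 0 passed as well (132 under 0.05 unadjusted). They numbered 7 without male naive replicate 3, which was the lowest of the naive males, 13 without naive replicate 2, 11 without 3 week replicate 2 and 40 without naive replicate 4. The direction changed less. When 1 male was left out, 208 to 214 slopes stayed below 0, and 199 did when 24 h replicate 2 and 3 week replicate 3 were both left out. The median r was then -0.47, and 0 passed by limma (85 under 0.05 unadjusted).

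In each male group taken alone most members were negative as well. There were 193 of 215 in naive males (median r -0.58), 210 at 24 h (median -0.62) and 206 at 3 weeks (median -0.72), with 6, 6 and 5 animals. Over all tested genes the share below 0 was 51.6%, 51.3% and 48.4%. Inside pattern B alone (naive and 3 week males together) 210 slopes were below 0 and 0 passed by limma (119 under 0.05 unadjusted). Inside pattern A (males at 24 h) the counts were also 210 and 0 (61 under 0.05 unadjusted). Members chosen at a stricter female r were slightly lower in males: the 35 at -0.8 or less had a median male r of -0.63, the other 180 a median of -0.58, and the 319 genes just short of membership, between -0.7 and -0.6, a median of -0.46.

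Median male r was lowest in the most abundant members. The 147 in the highest class of level had a median male r of -0.62, and 23 of the 26 that passed were among them, with the other 3 in the next class. The other genes of the highest class had a median male r of 0.04, and 0.437% of them passed with a negative sign. The 3 lower classes held 4, 11 and 15 members, of which 0 passed. Of 6 relations of Avpr1a with depth, genes at 0 and place between the patterns, the one farthest from 0 was that with the pattern in males, at r of -0.44 (permutation p = 0.105, adjusted 0.538; rho -0.30, permutation p = 0.291), and at -0.47 without the 2 males farthest from the median of Avpr1a. With the pattern as a term 213 slopes in males were below 0 and 36 passed. Pearson's r of Avpr1a with log2 depth was -0.20 in 29 females (permutation p = 0.281, adjusted 0.538 over 6 relations; Spearman's rho -0.26, permutation p = 0.172) and 0.20 in 17 males (permutation p = 0.408, adjusted 0.538; rho 0.13, permutation p = 0.59). Without the 2 animals farthest from the median of Avpr1a r was -0.21 and 0.33. With depth as a covariate 213 slopes in males were below 0 and 18 passed.

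ENSMOCG00000017186 had the lowest r with Avpr1a in males of all 14454 genes. Its log2 level was 11.98 at the lowest, 12.30 at the median and 12.60 at the highest in naive males. At 24 h these were 11.84, 12.07 and 12.47, and the 5 males at 3 weeks stood at 12.25, 11.95, 12.44, 12.23 and 11.998 in the order given above for Avpr1a. In all 3 male groups the animal with the least Avpr1a had the most of this gene. The slope was -0.35 (SE 0.06, adjusted p = 0.0113 by limma). Pearson's r was -0.86 (permutation p = 0.00011, adjusted 0.0394 over 14454 genes) and Spearman's rho -0.85 (permutation p = 0.00013, adjusted 0.0702). Without the 2 males farthest from the median of Avpr1a r was -0.79. The limma call was lost without male 24 h replicate 2 (adjusted p = 0.0738) and without male 3 week replicate 3 (adjusted p = 0.0547).

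ENSMOCG00000022399 came next, with a slope of -0.20 (SE 0.04, adjusted p = 0.024 by limma). Its r in males was -0.85 (permutation p = 0.00022, adjusted 0.0423) and its rho -0.76 (permutation p = 0.00314, adjusted 0.135), and r was -0.66 without the same pair of males. The limma call was lost without male 24 h replicate 2 (adjusted p = 0.14) and without male 3 week replicates 2, 3 or 5 (adjusted p = 0.0505, 0.158 and 0.0602), and with the pattern as a term (adjusted p = 0.0501). The 2 genes lowest in r in females did not pass in males. ENSMOCG00000002545 had a male r of -0.66 (permutation p = 0.00854, adjusted 0.177; rho -0.64, permutation p = 0.0106), and r was -0.43 without the same pair of males. Its slope was -0.34 (SE 0.10, adjusted p = 0.102 by limma), with adjusted p of 0.0499 without male naive replicate 4 and 0.0476 without male 3 week replicate 5. ENSMOCG00000001666 had a male slope of -0.09 (SE 0.08, adjusted p = 0.731 by limma).

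**Figure D3:**
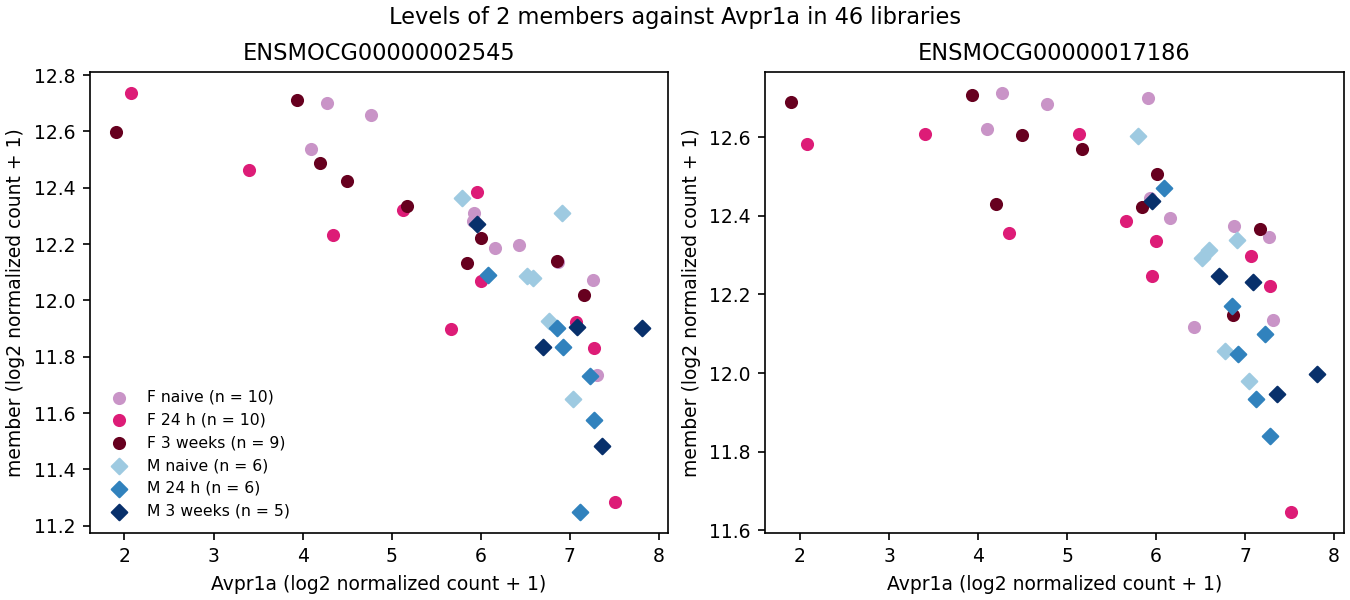
Log2 levels of ENSMOCG00000002545 (left, lowest r in females) and ENSMOCG00000017186 (right, lowest r in males) against the log2 level of Avpr1a in each of 46 libraries, with circles for females and diamonds for males. In both panels the member is lower where Avpr1a is higher. Female Avpr1a spans 1.90 to 7.51, male Avpr1a 5.79 to 7.81.

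The 2 most abundant members showed the same direction without passing the test. ENSMOCG00000019186, with a mean normalized count of 66748, had a slope in males of -0.17 (SE 0.05, adjusted p = 0.109 by limma). ENSMOCG00000018923, with a mean of 59051, had a slope of -0.40 (SE 0.11, adjusted p = 0.0852 by limma), which passed without male 24 h replicate 4 (adjusted p = 0.0146). The single member with a slope above 0 in males was ENSMOCG00000015769, picked out after its value was seen, at 0.02 (SE 0.04, adjusted p = 0.881 by limma). Its SD within a group was between 0.05 and 0.09 in all 6 groups.

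Most of the opposing genes had lower means in males than in females (209 of 215), against 50.9% of all tested genes. Averaged over the 3 conditions, 150 of the 215 (69.8%) passed the test as lower in males (limma, adjusted p under 0.05), against 9.37% of all tested genes. None passed as higher in males, against 10.3%. The median log2 difference was -0.24 (quartile -0.31 at the lower end, median SE 0.07), which puts females 1.18-fold above males, and the median of all tested genes was 0.00. In 192 genes the mean was lower in males in each of the 3 conditions, and the share of all tested genes with this was not computed. Since the members move together, these are not separate observations. With the place of each library between the patterns as a term, 0 passed by limma (121 under 0.05 unadjusted) at a median of -0.30, with 211 below 0. Outside 24 h the pattern goes with sex, so this fit cannot tell them apart and the lost calls decide nothing. Group means were not used to choose the genes, while Avpr1a itself was higher in males by 1.36 on the log2 scale (SE 0.38, adjusted p = 0.00891 by limma). Its difference did not pass in a single condition, at 0.70 in naive animals (adjusted p = 0.572 by limma), 1.47 at 24 h (adjusted p = 0.36) and 1.92 at 3 weeks (adjusted p = 0.0956).

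At 24 h, where both sexes share pattern A, 208 of 215 members had lower means in males, against 51.8% of all tested genes. The median difference was -0.20. None passed there by limma, while of all tested genes 0.00692% passed as lower and 0.00692% as higher. Unadjusted, 75 members (34.9%) were under 0.05, against 11.5% of all tested genes. Without female 24 h replicate 1, which had the most Avpr1a among females, 3 passed. In naive animals the median was -0.21, with 197 means lower in males, against 51.1% of all tested genes. There 8 members (3.72%) passed as lower against 1% of all tested genes, where 1.28% passed as higher. At 3 weeks the median was -0.32, with 212 lower, against 49.8% of all tested genes. There 38 members (17.7%) passed as lower against 1.66%, where 1.53% passed as higher. With the same pattern term, 0 members passed in naive animals or at 3 weeks, at median differences of -0.30 and -0.40 (limma, with 30 and 92 under 0.05 unadjusted). Sex and pattern cannot be told apart in either of these fits.

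Single animals moved the counts of single conditions. In naive animals 0 to 3 passed without any 1 of female naive replicates 1, 2, 5, 8 and 10 or male naive replicates 1, 2 and 5, while 13 passed without female naive replicate 4 and 18 without replicate 7. At 3 weeks 2 to 15 passed without any 1 of female 3 week replicates 2, 3, 5, 7 and 9 or male 3 week replicates 1, 2, 4 and 5. There were 61 without female 24 h replicate 1, 76 and 74 without female 3 week replicates 6 and 8, and 74 without male 3 week replicate 3. Over all conditions the count ran from 131 to 170 when 1 library was left out. In a test of whether a change with time differed by sex, 0 of 215 passed for 24 h and 0 for 3 weeks by limma, against 0.0484% and 0% of all tested genes. Unadjusted, 6 (2.79%) and 4 (1.86%) were under 0.05, against 9.03% and 3.14% of all tested genes.

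The mean of the 215 log2 levels in each library shows the same layout. In naive females it was 11.38 at the lowest, 11.71 at the median and 12.05 at the highest. At 24 h these values were 11.13, 11.70 and 12.03 in females, and at 3 weeks 11.48, 11.88 and 11.98. In naive males they were 11.35, 11.53 and 11.70, and in males at 24 h 11.19, 11.53 and 11.72. The 5 males at 3 weeks stood at 11.52, 11.27, 11.67, 11.47 and 11.36. Male and female libraries overlapped in every condition, and the female range was the wider one at naive housing, 24 h and 3 weeks. The female groups held more animals, and a range widens with their number. In the same order the SD was 0.23, 0.26 and 0.19 in females and 0.12, 0.19 and 0.15 in males, a difference that was not tested. The genes were chosen on their movement within the female groups, so the wider female spread is no independent result. The library lowest of all was female 24 h replicate 1, in which 0 of the 215 genes were above the group mean, and in female naive replicate 2 and female 24 h replicate 7 all 215 were above it.

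**Figure D4:**
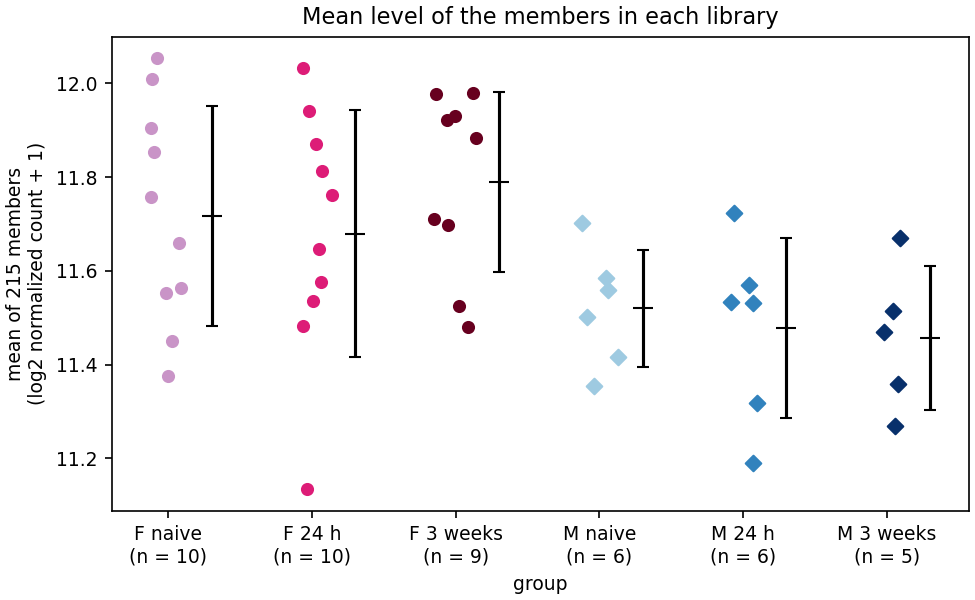
Mean log2 level of the 215 opposing genes in each library (points), with the mean and SD of each group (bars). F stands for female and M for male. The male group means lie between 11.46 and 11.52 and the female group means between 11.68 and 11.79, with overlapping libraries.

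The largest passing sex difference among the members was that of ENSMOCG00000014895. Its log2 level had a lowest, median and highest value of 6.65, 7.63 and 8.44 in naive females, 6.87, 7.67 and 8.58 in females at 24 h, and 7.07, 7.91 and 8.39 in females at 3 weeks. In males these were 5.30, 6.80 and 7.16 in naive animals and 5.70, 7.11 and 7.88 at 24 h, and the 5 males at 3 weeks stood at 7.11, 6.16, 7.11, 6.87 and 6.75. Male medians lay below female medians in all conditions, and the ranges overlapped. The difference was -0.82 (SE 0.17, adjusted p = 0.000678 by limma). ENSMOCG00000014922 followed with -0.65 (SE 0.21, adjusted p = 0.026 by limma). Of the abundant members, ENSMOCG00000019186 was lower in males by -0.24 (SE 0.05, adjusted p = 0.00153 by limma) and ENSMOCG00000018923 by -0.37 (SE 0.09, adjusted p = 0.00437 by limma). All 4 of these calls were lost with the pattern as a term, at -1.06, -0.69, -0.34 and -0.42, a fit that cannot tell sex from pattern outside 24 h.

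Time with a partner moved few of the opposing genes past the threshold. Between females at 24 h and naive females 0 of 215 passed by limma, against 0.0346% of all tested genes higher and 0.0692% lower, and the median difference was -0.03. Unadjusted, 12 members (5.58%) were under 0.05, against 19.4% of all tested genes. Between males at 24 h and naive males 0 passed by limma, against 0.083% higher and 0.159% lower, with a median of -0.04 and 15 members (6.98%) under 0.05 unadjusted, against 11.9%. At 3 weeks against naive animals 0 passed by limma in either sex, as for 0% of all tested genes. The medians were 0.05 in females, with 6 members (2.79%) under 0.05 unadjusted against 4.91%, and -0.06 in males, with 0 members against 2.38%. Between 3 weeks and 24 h 0 passed by limma in females (background 0%), at a median of 0.09 and with 20 members (9.3%) under 0.05 unadjusted against 8.63%. In males 0 passed as well (background 0.0208% higher and 0.0484% lower), at a median of -0.03 and with 3 members (1.4%) under 0.05 unadjusted against 9.34%. In females at 24 h against naive females 1 passed without female naive replicate 6 or female 24 h replicate 8, and in males 1 passed without male naive replicate 5 or male 24 h replicate 2. With the pattern as a term the male median at 24 h turned to 0.09, with 65 of 215 below 0 in place of 127. Time and pattern cannot be told apart in these males. The 24 h comparisons with 3 weeks and with naive animals share the libraries at 24 h.

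**Figure D5:**
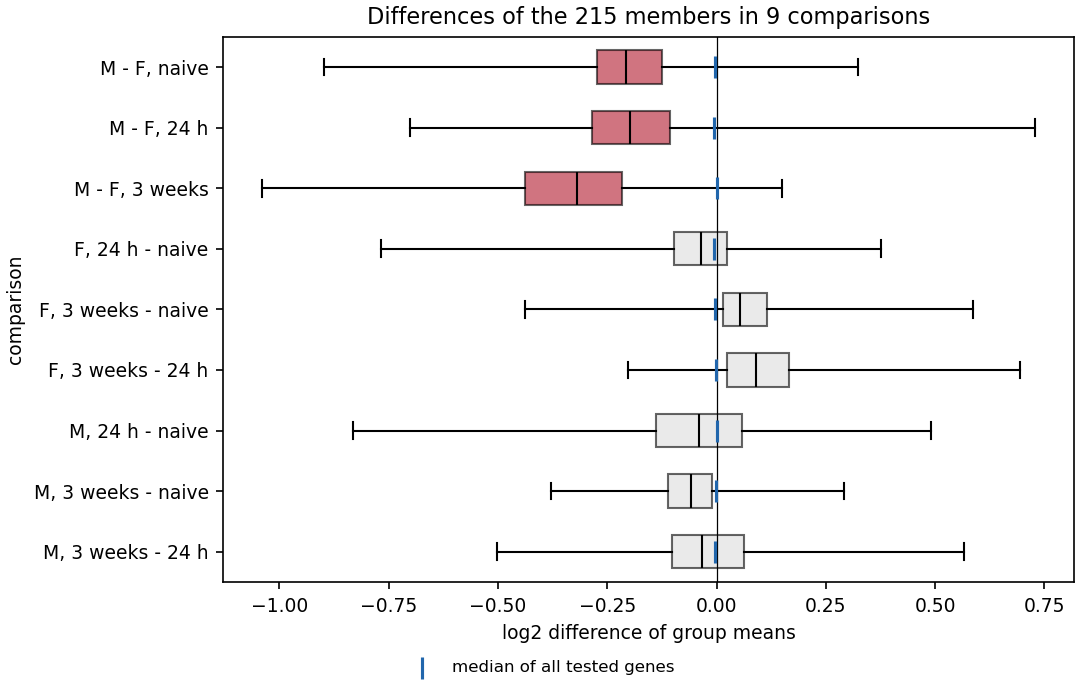
Log2 differences of group means of the 215 opposing genes in 9 comparisons (F female, M male). Boxes span the quartiles, whiskers the full range, and blue ticks mark the median of all tested genes. The 3 comparisons of the sexes (red) have medians of -0.21, -0.20 and -0.32, and the 6 comparisons of time (grey) have medians between -0.06 and 0.09.

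Averaged over the sexes, 1 opposing gene fell and 1 rose at 24 h, against 1.36% of all tested genes lower and 1.65% higher. ENSMOCG00000020670 stood at a lowest, median and highest log2 level of 11.96, 12.26 and 12.44 in naive females and 11.63, 11.97 and 12.25 in females at 24 h. In males these were 12.01, 12.09 and 12.33 in naive animals and 11.70, 11.97 and 12.02 at 24 h. The levels at 24 h were thus shifted down in both sexes with overlap. The change was -0.23 (SE 0.05, adjusted p = 0.0182 by limma), made up of -0.23 in each sex. At 3 weeks its group mean was 12.23 in females and 12.04 in males.

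ENSMOCG00000018100 rose by 0.20 (SE 0.05, adjusted p = 0.0298 by limma). Its lowest, median and highest levels were 10.84, 11.02 and 11.13 in naive females, 10.93, 11.16 and 11.43 in females at 24 h, 10.58, 10.89 and 11.04 in naive males and 10.93, 11.10 and 11.20 in males at 24 h. Levels at 24 h were higher with overlap in both sexes. The call was lost without male naive replicate 1 (adjusted p = 0.0663) or without male 24 h replicates 1, 3 or 6 (adjusted p = 0.0583, 0.0529 and 0.0561). Both calls were lost with the pattern as a term, at -0.21 and 0.25, a fit that cannot tell time from pattern in males. Averaged over the sexes at 3 weeks against naive animals 0 members passed by limma, against 0% of all tested genes, and 0 were under 0.05 unadjusted, against 3.51%.

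The 215 genes also ran opposite to the 308 genes that followed Avpr1a across females at r of 0.7 or more. In males the median r between a member of one set and a member of the other was -0.52, and 96.2% of these pairs were negative. Both sets were chosen on the same Avpr1a values of the same females.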

How the data were processed

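RNA-seq of nucleus accumbens punches from 46 voles was analysed from 1 table of 17479 genes. The authors' deposited values are log2 of a normalized count plus 1, from the values themselves (0 to 19.9). The submitters' processing notes list DESeq2 with no version, Salmon 0.12, FastQC 0.11.7, fastp 0.14.1 and bcl2fastq 2.20.0.422. No label names the genome build. The normalization held a gene-specific factor, and only 47.8% to 91.8% of low values in a library lay within 0.1 of a whole read, so no count model was used. The reference gene table (MicOch1.0) matched 0 of 17478 identifiers.

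Values were analysed as log2(normalized count + 1) in 14455 genes, those whose mean normalized count reached 10. A fold change on this scale understates that of low genes. limma 3.58.1 in R 4.3.3 (trend, robust) tested 14 contrasts of 6 group means over all 46 libraries, and the slope on Avpr1a across the 17 males with group means as terms. Benjamini-Hochberg adjustment ran over all tested genes, with a threshold of 0.05. Pearson's r and Spearman's rho in males were tested with 100000 permutations within groups (Python 3.11.15, numpy 2.4.6). All tests were 2-sided. Data of 14455 genes were simulated with separate noise for each gene, at that gene's SD within groups over all 46 libraries. Genes that move together, as the members do, were not simulated. Sex differences of 0.2 and 0.3 (log2, 100 genes each at a mean of at least 1000) were recovered in 74% and 93%. Slopes of -0.2 and -0.3 in males, given to the same 100 genes each among 14454 tested, were recovered in 7% and 39%. The noise was not set to the SD of males, whose median over all tested genes was 0.20, against 0.22 in females. Of the genes given no simulated effect, 17 passed for sex and 5 for the slope.

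Named identifiers followed a shortened form of a planned rule. They were the pair of members lowest in r in females and in males (mean of at least 50). The pair of members with the highest mean level and the largest passing changes in each direction per comparison (at most 2) were added. For r and mean level the planned rule listed more members than these pairs. The rule also asked for genes of fixed lists, and for cell type markers to be checked; with no symbols neither could be done. The members, lists and tests were chosen with earlier results of these data known. Alternatives tried were other pseudocounts, filters, normalizations and weights, covariates (replicate number as a block, depth, normalization pattern), fits of fewer groups, rank tests, other membership rules and leaving out each library.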

Additional observations from a re-analysis of the deposited data

Results flagged for a closer look

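Among 78 checks of a group of 5 to 10 libraries for 1 library far from the others, 4 stood out, and about 1 in 20 would by chance. Avpr1a was at 6.08 in male 24 h replicate 2, with the next male of the group at 6.86. Without this animal no opposing gene passed the limma test in males, and the same held without male 3 week replicate 3. ENSMOCG00000014895 was at 5.30 in male naive replicate 6, with the next at 6.48. ENSMOCG00000014922 was at 5.45 in female 3 week replicate 8, with the next at 6.46, and that female had the most Avpr1a of her group. ENSMOCG00000017186 was at 11.65 in female 24 h replicate 1, with the next at 12.22, and that female had the most Avpr1a of all females.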

How the results depend on the processing

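The rule gave 387 genes with Spearman's rho, 341 with unlogged values, 534 at a threshold of -0.6 and 35 at -0.8, and 177 to 281 without 1 female. Of the genes found with rho 211 were among the 215. An alternative chosen after seeing the data, without the pair of females lowest in Avpr1a, gave 304, of which 192 were shared. Slopes below 0 in males numbered 199 to 214 in all 30 alternatives. The 26 members that passed there became 0 with the replicate block, 0 with rho, 0 in either pattern alone, 0 without both males lowest in Avpr1a (chosen after seeing the data) and 0 to 40 without 1 male. With the pattern as a term (also added later) 36 passed. The 150 sex differences became 0 with the pattern as a term, a fit that cannot tell sex from pattern outside 24 h. In naive animals the 8 became 16 with array weights, 4 with the replicate block, 0 with the pattern, 0 in a fit of the groups compared and 0 to 18 without 1 library. The 38 at 3 weeks became 142 with array weights, 23 with the replicate block, 17 with depth, 0 with the pattern and 2 to 76 without 1 library, and the 0 at 24 h became 3 with array weights and 0 to 3 without 1 library. At 24 h against naive animals quantile normalization and array weights each gave 1 in males, leaving out 1 library gave 0 to 1 in either sex and 1 to 2 over both sexes, and the pattern gave 0 over both. Array weights gave 1 for 3 weeks against 24 h in males and 1 for the difference of the 24 h changes. The causes were not tested.

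Slopes in males changed sign for ENSMOCG00000001666 (0.0093) and ENSMOCG00000015769 (-0.012) in males at 24 h alone and for ENSMOCG00000014895 (0.074) without both males lowest in Avpr1a. The sex difference of ENSMOCG00000015769 was -0.0055 with the pattern. None of these was past the threshold. The replicate numbers did not pair libraries: the mean r of deviations was -0.0031 between same-numbered libraries of different groups and 5 of 46 libraries correlated best with their own number. Under the block 208 slopes in males were below 0 and 102 were under 0.05 unadjusted, against 214 and 149 without it. Fewer than 3 reads of Avpr1a in the lowest female limit its precision there.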
